A study of Mus musculus with 5 samples.

Results

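Proliferating C2C12 cells that carried a control short hairpin RNA for 72 h were compared, gene by gene, with C2C12 cells given vehicle for 8 h. C2C12 is an immortalised mouse myoblast line, kept in serum-rich, high-glucose DMEM. The comparison takes 2 of the 5 libraries of the series, shControl and vehicle, and every gene of its table. The table holds 23361 genes, of which 11128 had a mean of at least 1 FPKM over the 5 libraries and entered the comparison. FPKM, the fragments of a gene scaled by its length and by the size of the library, is already divided by gene length. The other libraries came from cells carrying a hairpin against PKM2 for 72 h (shPKM2) and cells given TEPP-46, a PKM2 activator, or shikonin, a compound used as a PKM2 inhibitor, for 8 h. PKM2, one of the splice products of Pkm, is a pyruvate kinase and closes glycolysis.

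Each condition had 1 library, so no test was possible and every value below describes these libraries. Hairpin, hours and any batch go together in the comparison and cannot be told apart. How the hairpins were delivered, their sequences, the vehicle and the doses are not in the labels, nor is the meaning of the number 30 that ends the name of the shControl column. A difference is shControl minus vehicle on the log2(FPKM + 1) scale, which understates the difference of genes near or under 1 FPKM, and it stands in parentheses after a pair of levels. A gene was counted as at least 2-fold higher or lower where that difference was at least 1 or at most -1. A statement that the hairpin libraries lay apart from the others describes the named gene only. The share of all genes that separate in that way was not counted. In bulk RNA, fewer cells of a type and less RNA per cell cannot be told apart.

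Depth, estimated from the smallest steps of the values and given in units of 1000000 reads, was 22.2 for shControl and 29.9 for vehicle, and 25.2, 23.4 and 21.7 for shPKM2, TEPP-46 and shikonin. The counting standard error of a difference, which covers counting error only, was 0.16 for Ccl5 and 0.03 for Oas2. Myoblast markers were present in both libraries. Myod1, the myogenic determination factor, had 57.2 FPKM in shControl cells, against 63.2 FPKM in vehicle cells, Des, the muscle intermediate filament, 311 FPKM in shControl and 290.3 FPKM in vehicle cells, and Itga7, the laminin receptor of myoblasts, 117 FPKM in shControl and 127 FPKM in vehicle cells. The 12 macrophage and monocyte markers summed to 31.6 FPKM in shControl cells and 12 FPKM in vehicle cells, nearly all of it Cd14 and Cd68. Ptprc and Itgam, which define leukocytes, stood at 0.0155 and 0 FPKM in shControl cells and 0.0344 and 0.0127 FPKM in vehicle cells, and Tyrobp at 0 in both. The 8 endothelial markers summed to 0.28 FPKM in shControl and 0.12 FPKM in vehicle cells. Ribosomal precursor RNA, which lacks a poly(A) tail, was lower in the hairpin library, with Rn45s at 311 FPKM in shControl cells, against 512 FPKM in vehicle cells. The part of carried-over RNA in the results was not tested.

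Interferons are secreted proteins that cells make on sensing foreign or misplaced nucleic acid. Type I interferons bind the receptor of Ifnar1 and Ifnar2, whose kinases Jak1 and Tyk2 phosphorylate STAT factors. With Irf9 these form a complex that binds the interferon-stimulated response element of target genes, among them sensors, antiviral effectors, guanylate-binding GTPases and the MHC class I pathway. Double-stranded RNA is a known ligand of some of the sensors.

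Of the 11128 genes, 387 were at least 2-fold higher in shControl than in vehicle cells (3.48%) and 74 were at least 2-fold lower (0.665%). The median difference over all genes was -0.02, with quartiles of -0.21 and 0.20. Among genes longer than 300 nt, the higher set was led by interferon-stimulated genes and chemokines. Genes of the 8 lists on interferon ligands, receptors, regulatory factors, sensors, effectors, GTPases and MHC class I and II made up 85 of the 387 (21.96%), and 40 of the 72 genes at least 8-fold higher (55.6%). In the comparison these lists had 20 sensors, 45 effectors, 9 GTPases and 19 class I genes. They also had 14 receptor and JAK-STAT genes, 5 regulatory factors, 1 class II gene and no ligand. Their joint share of the 11128 genes was not counted. Members that passed the filter only through the hairpin libraries are included in both counts. The lower set, again among genes longer than 300 nt, was led by smooth muscle type actin genes. Of the 12 genes at least 8-fold lower, Tagln was the 1 longer than 300 nt. Short RNA genes, under 300 nt, accounted for 14 of the higher and 15 of the lower genes, and for 80 of the 11128 genes. Vehicle was under 1 FPKM for 128 of the 387 higher genes. These passed the filter through other libraries, so some other library, not always shControl, had to exceed vehicle. Among the 10902 genes with at least 1 FPKM in vehicle cells, 259 were at least 2-fold higher (2.38%), 76 lower (0.697%), and 45.5% were higher by any amount. With no filter, the median over the 16373 genes above 0 in either library was 0.005. That median is the background for list counts given at any level, since their share over all genes was not counted. The filter was passed only through the hairpin libraries by 11 of 20 sensors, 16 of 45 effectors and 8 of 9 GTPases. The same held for 4 of 19 class I genes and 3 of 11 chemokines. Next to the limit lay Stom at 1.00 and Slfn9, just outside, at 0.9997, and on the lower side Timp3 at -1.001 and Pcolce2, just outside, at -0.998.

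**Figure D1:**
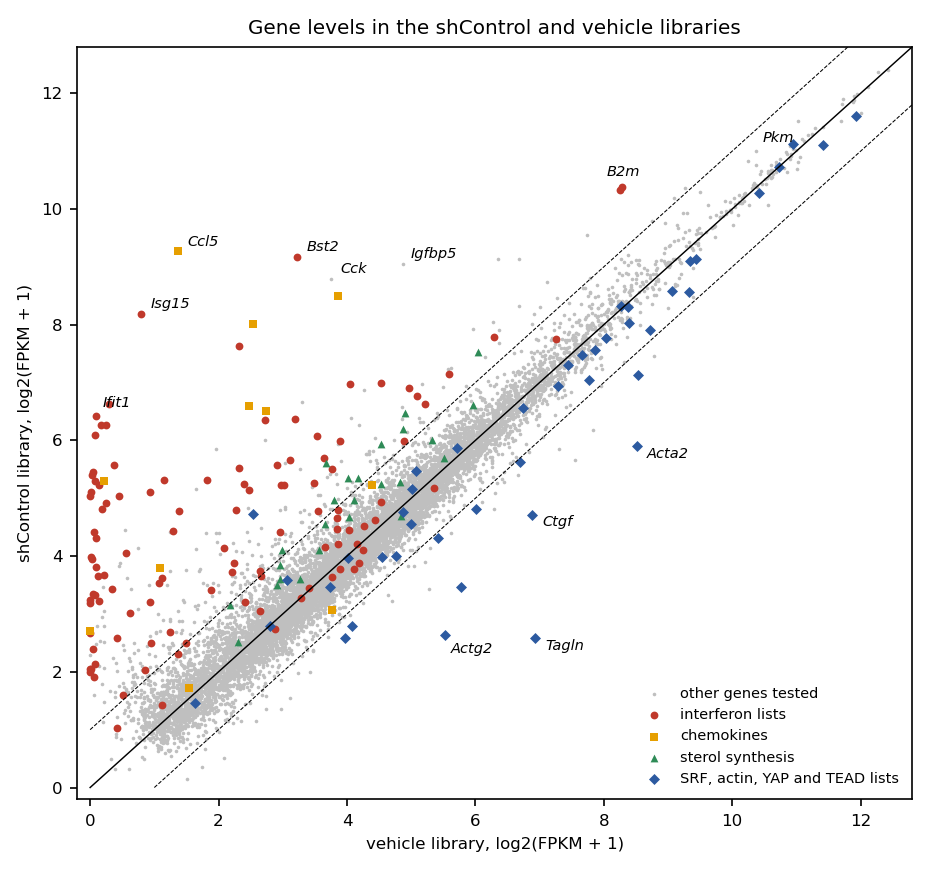
Level of each of the 11048 genes in the comparison other than short RNA genes in the shControl library (vertical axis) and in the vehicle library (horizontal axis), both as log2(FPKM + 1), 1 point per gene. The solid line marks equal levels and the dashed lines a 2-fold difference. Most genes lie along the line, interferon genes (red circles) and chemokines (orange squares) form a cloud above it at the left, and Tagln, Actg2, Acta2 and Ctgf (blue diamonds) lie below it.

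No interferon transcript reached the level of 1 FPKM. Ifnb1, which encodes interferon beta, had 0.340 FPKM in shControl cells, against 0 FPKM in vehicle cells, and 0.240 FPKM in shPKM2 cells, against 0 FPKM in TEPP-46 cells and 0 FPKM in shikonin cells. At the estimated depth this was about 5.66 reads in the shControl library and 0 in the vehicle library. Of the 21 ligand genes in the table, 15 were at 0 in both libraries, 5 were higher and 1 was lower in shControl cells. Ifng, the type II interferon, had 0.0384 FPKM in shControl cells, against 0.0284 FPKM in vehicle cells, and Ifnl2 and Ifnl3, of type III, were at 0 in both.

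The receptor gene Ifnar1 and the kinases Jak1 and Tyk2 differed little, while Stat2 and Irf9 were several-fold higher. Ifnar1 had 11.5 FPKM in shControl cells, against 12.7 FPKM in vehicle cells, a difference of -0.13. Jak1 had 35.1 FPKM in shControl and 39.8 FPKM in vehicle cells (-0.18) and Tyk2 7.29 FPKM in shControl and 5.29 FPKM in vehicle cells (0.40). None of these 3 was past 2-fold. Stat2 had 34.2 FPKM in shControl cells, against 4.56 FPKM in vehicle cells, a difference of 2.66. Its level was 38.7 FPKM in shPKM2 cells, against 5.30 FPKM in TEPP-46 cells and 9.48 FPKM in shikonin cells. Both hairpin libraries lay above the other libraries, with no overlap. In the same direction, Irf9 had 36.9 FPKM in shControl and 4.27 FPKM in vehicle cells (2.85). Usp18, the isopeptidase that removes ISG15 and dampens receptor signalling, had 67.5 FPKM in shControl and 0.0546 FPKM in vehicle cells (6.02). The other feedback genes of the list did not follow it: Socs1 had 17.5 FPKM in shControl and 16.8 FPKM in vehicle cells and Socs3 9.98 FPKM in shControl and 9.66 FPKM in vehicle cells. In the list of receptors, JAK-STAT genes and feedback genes, 14 passed the filter. Of these, 10 were higher, 4 of them at least 2-fold, and 4 were lower, with a median of 0.32.

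Among the interferon regulatory factors, Irf7, the factor that amplifies type I interferon production, differed most. Irf7 had 76.4 FPKM in shControl cells, against 0.183 FPKM in vehicle cells, a difference of 6.03, and 78.4 FPKM in shPKM2 cells, against 0.308 FPKM in TEPP-46 cells and 0.758 FPKM in shikonin cells. Every 8 h library was under 1 FPKM and both hairpin libraries were above 70 FPKM. Irf1 was higher by 0.94, at 26.7 FPKM in shControl and 13.5 FPKM in vehicle cells. Irf3, the constitutive factor activated by the sensors, had 16.2 FPKM in shControl and 17.9 FPKM in vehicle cells (-0.14), and Irf2 8.66 FPKM in shControl and 8.72 FPKM in vehicle cells (-0.01). Irf4 and Irf8 were under 0.2 FPKM in both libraries, and Irf5 had 1.47 FPKM in shControl and 0.612 FPKM in vehicle cells.

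Oligoadenylate synthetases, which make the second messenger for RNase L on binding double-stranded RNA, were nearly silent in vehicle cells. Oasl2 had 75.9 FPKM in shControl cells, against 0.126 FPKM in vehicle cells, Oas2 33.4 FPKM in shControl and 0.00780 FPKM in vehicle cells, and Oas3 20.3 FPKM in shControl and 0.0379 FPKM in vehicle cells. Oas1a had 32.1 FPKM in shControl cells and was listed at 0 in vehicle cells. Its level was 35.05 FPKM in shPKM2 cells, against 0.0216 FPKM in TEPP-46 cells and 0.164 FPKM in shikonin cells. Oas1 genes are close copies of each other, so reads may have been divided among them. The helicase RIG-I (Ddx58) had 38.8 FPKM in shControl cells, against 1.23 FPKM in vehicle cells, and its relatives Ifih1 (MDA5) 11.8 FPKM in shControl and 0.161 FPKM in vehicle cells and Dhx58 (LGP2) 15.6 FPKM in shControl and 0.478 FPKM in vehicle cells. Zbp1, a sensor of Z-form nucleic acid, had 29.3 FPKM in shControl and 0.187 FPKM in vehicle cells (4.67). PKR (Eif2ak2), the kinase that halts translation, was higher by 1.76, at 37.2 FPKM in shControl and 10.3 FPKM in vehicle cells, Tlr3 by 1.56 and the RNA editor Adar by 1.23. Other members differed less. Mavs, the adaptor of the RIG-I helicases, had 12.78 FPKM in shControl cells, against 16.3 FPKM in vehicle cells (-0.32). Mb21d1, which encodes cGAS, had 5.65 FPKM in shControl and 6.37 FPKM in vehicle cells (-0.15) and the kinase Tbk1 23.6 FPKM in shControl and 20.6 FPKM in vehicle cells (0.19). Sting (Tmem173) was higher by 1.00, at 11.6 FPKM in shControl and 5.32 FPKM in vehicle cells. Of the 23 genes of the list, 20 were higher and 3 lower at any level. Of the 9 with at least 1 FPKM in vehicle cells, 7 were higher, 4 of them at least 2-fold, with a median of 0.996.

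Antiviral effectors held the widest differences after Ccl5. Isg15, a ubiquitin-like modifier (chr4:156199424-156200818, minus strand, GRCm38, GENCODE M21), had 289 FPKM in shControl cells, against 0.724 FPKM in vehicle cells, a difference of 7.39. Its level was 250.1 FPKM in shPKM2 cells, against 1.59 FPKM in TEPP-46 cells and 1.00 FPKM in shikonin cells. The hairpin libraries were both above 200 FPKM and the other libraries below 2 FPKM. Ifit1, which binds RNA lacking the cap methylation of host messages (chr19:34640871-34650009, plus strand), had 84.95 FPKM in shControl cells, against 0.0703 FPKM in vehicle cells, and 82.3 FPKM in shPKM2 cells, against 0.359 FPKM in TEPP-46 cells and 0.211 FPKM in shikonin cells. Bst2, or tetherin, which holds budding virions to the membrane (chr8:71534255-71537456, minus strand), was among the most abundant. Bst2 had 574 FPKM in shControl cells, against 8.33 FPKM in vehicle cells, a difference of 5.95, and 559 FPKM in shPKM2 cells, against 8.82 FPKM in TEPP-46 cells and 16.1 FPKM in shikonin cells. Ifitm3, a restriction factor of endosomal entry, was abundant in both libraries, at 1328 FPKM in shControl cells, against 309.5 FPKM in vehicle cells (2.10). Rsad2 (viperin) had 38.3 FPKM in shControl and 0.0558 FPKM in vehicle cells, Cmpk2, its neighbour on chromosome 12, 41.3 FPKM in shControl and 0.0191 FPKM in vehicle cells, and Lgals3bp, a secreted glycoprotein, 198 FPKM in shControl and 3.98 FPKM in vehicle cells. Mx1, a GTPase that traps viral nucleocapsids, reached no more than 1.93 FPKM in shControl cells and was at 0 in vehicle cells. Of the 54 effectors in the table, 53 were higher in shControl cells at any level, 0 were lower and 1 was at 0 in both. Of the 26 with at least 1 FPKM in vehicle cells, all 26 were higher and 20 at least 2-fold, with a median of 1.89. The smallest differences among the 45 that passed the filter belonged to Daxx at 0.36 and Samhd1 at 0.40.

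Promoter windows of 70 bases are shown for genes of 6 classes, effectors, sensors, STAT factors, GTPases, MHC class I and chemokines, since they carry the letters of the element through which the STAT and IRF9 complex acts. They were read from RefSeq promoters on GRCm38.p6, 5′ to 3′ on the strand of the gene. Capitals mark the core of the element, GAAA, any pair of bases and GAAA again, on either strand, overlapping copies included. The windows lie at chr4:156200845-156200914 (Isg15, minus strand), chr19:34640774-34640843 (Ifit1, plus strand), chr8:71537557-71537626 (Bst2, minus strand), chr5:120907500-120907569 (Oas1a, minus strand), chr10:128270248-128270317 (Stat2, plus strand), chr3:142559975-142560044 (Gbp3, plus strand), chr11:58199492-58199561 (Igtp, plus strand), chr2:122147518-122147587 (B2m, plus strand) and chr5:92349063-92349132 (Cxcl10, minus strand).
Isg15: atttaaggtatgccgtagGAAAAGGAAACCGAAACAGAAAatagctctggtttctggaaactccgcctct
Ifit1: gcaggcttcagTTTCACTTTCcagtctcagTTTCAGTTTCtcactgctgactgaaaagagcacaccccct
Bst2: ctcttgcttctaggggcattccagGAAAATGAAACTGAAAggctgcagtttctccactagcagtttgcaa
Oas1a: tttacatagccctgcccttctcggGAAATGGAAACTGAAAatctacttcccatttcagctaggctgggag
Stat2: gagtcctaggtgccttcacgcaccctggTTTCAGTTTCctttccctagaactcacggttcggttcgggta
Gbp3: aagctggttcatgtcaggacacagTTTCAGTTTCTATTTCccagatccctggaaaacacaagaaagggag
Igtp: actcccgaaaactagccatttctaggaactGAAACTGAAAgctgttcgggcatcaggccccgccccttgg
B2m: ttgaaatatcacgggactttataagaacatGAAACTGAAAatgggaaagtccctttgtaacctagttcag
Cxcl10: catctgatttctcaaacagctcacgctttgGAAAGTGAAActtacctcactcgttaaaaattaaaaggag
The core began 14 bases before the annotated start of Oas1a and 222 bases before that of Stat2, the nearest and the farthest of the 9. In the window from 250 bases before to 50 bases after the start, it was present in 20 of 44 effectors with a promoter in the table (45.5%), 10 of 12 GTPases (83.3%), 7 of 17 sensors (41.2%) and 5 of 19 MHC class I genes (26.3%). Interferon ligand genes, none of which reached 1 FPKM, held it in 11 of 20 (55%). The core was less frequent in chemokines, 2 of 14 (14.3%), and in the receptor and STAT list, 2 of 12 (16.7%). Cytosolic ribosomal protein genes, which differed little, held it in 6 of 38 (15.8%). Among the genes at least 2-fold higher, 51 of 279 held it (18.3%), against 309 of 8854 genes in the comparison (3.49%) and 3.99% of all 27025 promoters. The 279 include genes that passed the filter only through the hairpin libraries, and the share without them was not counted. Irf7, Psmb8 and Tap1 had no match in the window. A match describes the letters of the window only.

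The interferon-inducible GTPases, which attack vacuoles that hold pathogens, were almost all off in vehicle cells. Gbp3 had 27.3 FPKM in shControl cells, against 0.141 FPKM in vehicle cells, and 23.6 FPKM in shPKM2 cells, against 0.105 FPKM in TEPP-46 cells and 0.583 FPKM in shikonin cells. Igtp had 18.9 FPKM in shControl and 0.0627 FPKM in vehicle cells and Irgm2 13.1 FPKM in shControl and 0.0603 FPKM in vehicle cells. Igtp and Irgm2 overlap on chromosome 11, so reads may be shared between them. Irgm1 was the exception with a clear level in vehicle cells, and had 82.04 FPKM in shControl cells, against 8.10 FPKM in vehicle cells (3.19). Of 20 members, 17 were higher and 2 lower at any level. The 2 lower ones were Gbp8 and 9930111J21Rik1, the second at 0.958 FPKM in shControl and 1.32 FPKM in vehicle cells.

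The MHC class I pathway, which displays peptides from the cytosol at the cell surface, was higher along its whole course. H2-K1, a classical heavy chain, had 125 FPKM in shControl cells, against 15.5 FPKM in vehicle cells (2.93), and B2m, the light chain, 1278 FPKM in shControl and 303 FPKM in vehicle cells (2.07). B2m was also 1099.5 FPKM in shPKM2 cells, against 319 FPKM in TEPP-46 cells and 480.4 FPKM in shikonin cells. Tapbp, which loads the heavy chain, had 126 FPKM in shControl and 22.1 FPKM in vehicle cells, and the peptide pump Tap1 5.01 FPKM in shControl and 0.333 FPKM in vehicle cells. The immunoproteasome subunit Psmb8 had 11.7 FPKM in shControl cells, against 0.0840 FPKM in vehicle cells (3.55), and Psmb10 36.7 FPKM in shControl and 7.09 FPKM in vehicle cells. The constitutive proteasome did not follow: the differences of its 31 genes lay between -0.23 and 0.29, with a median of 0.03 that was -0.04 after rescaling to TPM, which gives every library the same total. All 26 class I genes were higher at any level, and of the 14 with at least 1 FPKM in vehicle cells all 14 were higher, 13 of them at least 2-fold, with a median of 2.15. Class I genes are near-identical copies in part, so single H2-Q and H2-T values are uncertain. Shikonin cells lay between the hairpin libraries and vehicle for H2-K1, at 48.7 FPKM. Of the 8 MHC class II genes, 1 passed the filter, H2-DMa at 1.69 FPKM in shControl and 1.18 FPKM in vehicle cells.

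**Figure D2:**
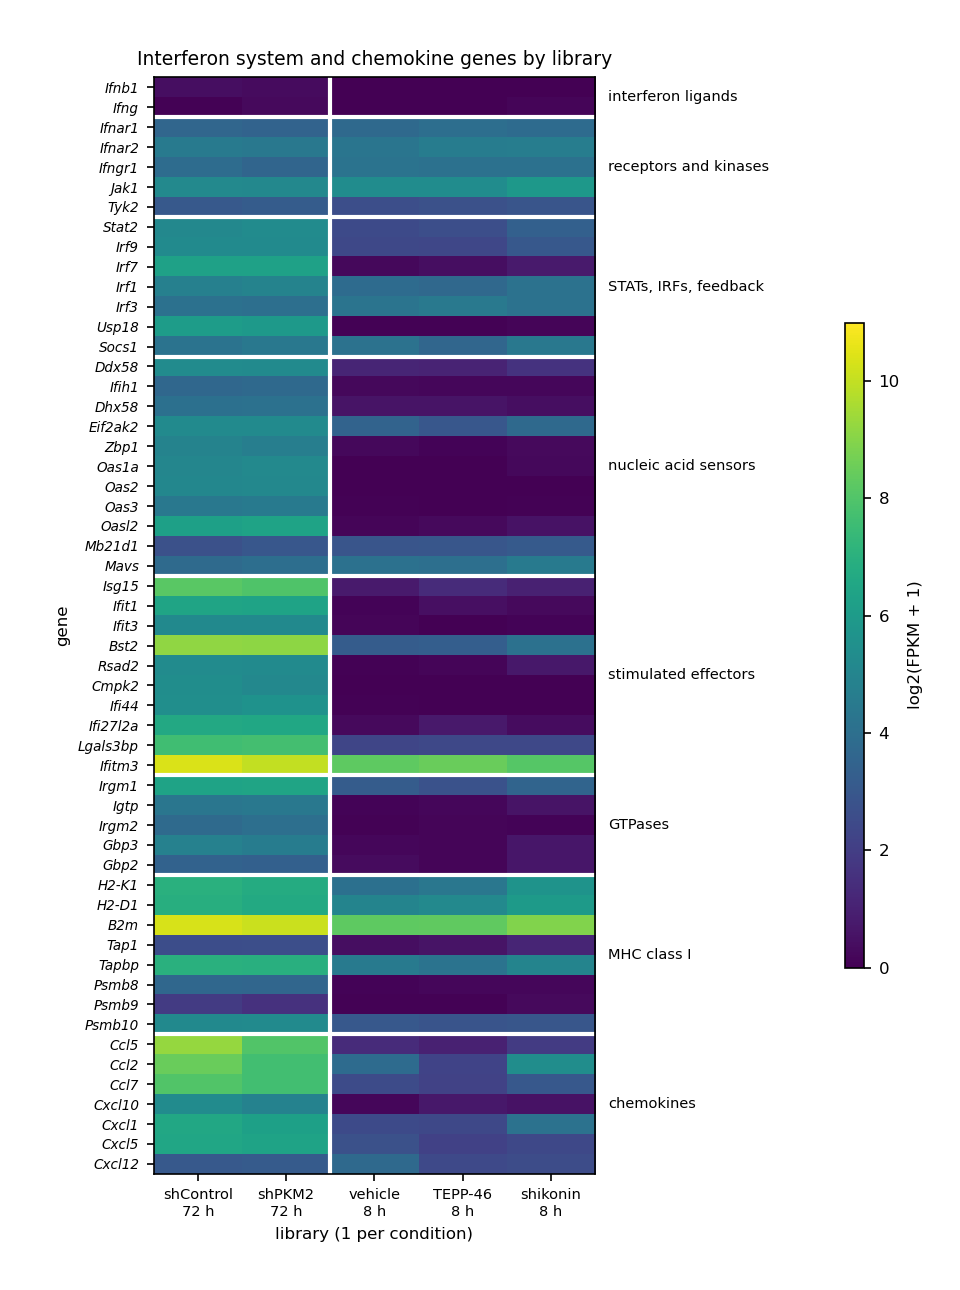
Level of interferon system and chemokine genes in each of the 5 libraries, 1 library per column and 1 gene per row, with colour giving log2(FPKM + 1). White lines separate the hairpin libraries at 72 h from the 8 h libraries and 1 class of genes from the next. Ligands are dark in every column, receptors and kinases are alike across columns, and most sensors, effectors and GTPases are dark in the 3 libraries on the right alone.

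Chemokines were the class with the highest median difference, at 3.78 over 11 genes. Over the 10 with at least 1 FPKM in vehicle cells the median was 3.25. Ccl5, which draws T cells and monocytes (chr11:83525778-83530518, minus strand), showed the largest difference among genes that averaged 5 FPKM or more in the 2 libraries, short RNA genes and genes without a regular symbol left out. Ccl5 had 614 FPKM in shControl cells, against 1.57 FPKM in vehicle cells, a difference of 7.90, and 256 FPKM in shPKM2 cells, against 1.00 FPKM in TEPP-46 cells and 2.77 FPKM in shikonin cells. Its level in shPKM2 cells was below that of shControl cells, yet far above every 8 h library. Ccl2, the main monocyte attractant, had 359 FPKM in shControl cells, against 13.5 FPKM in vehicle cells, and 203 FPKM in shPKM2 cells, against 3.57 FPKM in TEPP-46 cells and 40.8 FPKM in shikonin cells. Here the 8 h libraries were spread over an order of magnitude. Ccl7 had 257 FPKM in shControl and 4.79 FPKM in vehicle cells, and Cxcl10, the interferon-inducible ligand of CXCR3, 38.5 FPKM in shControl and 0.159 FPKM in vehicle cells. The neutrophil attractants Cxcl1 and Cxcl5 had 95.6 FPKM in shControl and 4.56 FPKM in vehicle cells and 90.5 FPKM in shControl and 5.66 FPKM in vehicle cells. Cxcl12, which retains CXCR4-bearing cells, went the other way, with 7.37 FPKM in shControl cells, against 12.6 FPKM in vehicle cells (-0.71). TEPP-46 and shikonin cells, at 4.38 and 4.92 FPKM, lay below both. Of 22 chemokines, 19 were higher and 3 lower at any level, and 6 of the 10 with at least 1 FPKM in vehicle cells were at least 2-fold higher.

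Of the 11 inflammatory cytokine and adhesion genes that passed the filter, 10 were higher, 8 at least 2-fold, with a median of 1.36. Of the 6 with at least 1 FPKM in vehicle cells, 5 were higher and 4 at least 2-fold. Il6 had 7.33 FPKM in shControl cells, against 0.162 FPKM in vehicle cells (2.84), and Vcam1, a leukocyte adhesion molecule, 55.6 FPKM in shControl and 20.2 FPKM in vehicle cells (1.42). Ptgs2, the inducible cyclooxygenase, had 149 FPKM in shControl cells, against 46.4 FPKM in vehicle cells. Its level was 123 FPKM in shPKM2 cells, against 115 FPKM in TEPP-46 cells and 345 FPKM in shikonin cells, so the hairpin and 8 h libraries overlapped. Csf1, the macrophage growth factor, was the 1 lower gene, with 94.96 FPKM in shControl cells, against 169 FPKM in vehicle cells (-0.82). The transcripts of the NF-kB factors themselves differed little: Rela had 40.8 FPKM in shControl and 41.3 FPKM in vehicle cells and Nfkb1 45.8 FPKM in shControl and 40.1 FPKM in vehicle cells, and the 14 genes of the list had a median of 0.23. Nfkbiz was higher by 1.34 and Relb by 1.06. A kappa B site is shown for Cxcl1, with GGGA, any pair of bases and TTCC in capitals and overlapping matches joined, as an element present in chemokine promoters. The window lies at chr5:90891145-90891214 (Cxcl1, plus strand).
Cxcl1: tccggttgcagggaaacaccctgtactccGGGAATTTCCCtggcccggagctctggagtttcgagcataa
That motif was found in 4 of 14 chemokine promoters (28.6%) and 3 of 13 promoters of the NF-kB list (23.1%), against 1.62% of the 8854 genes in the comparison.

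Of the 17 cell death and caspase genes that passed the filter, 15 were higher, 6 at least 2-fold, with a median of 0.28. Of the 14 with at least 1 FPKM in vehicle cells, 12 were higher and 3 at least 2-fold. Casp4, the caspase-11 of mouse that senses lipopolysaccharide, had 10.3 FPKM in shControl cells, against 0.883 FPKM in vehicle cells (2.58), and Gsdmd, the pore former it cleaves, 25.5 FPKM in shControl and 9.60 FPKM in vehicle cells (1.32). Mlkl, the effector of necroptosis, had 62.6 FPKM in shControl and 28.8 FPKM in vehicle cells (1.10), but reached 70.9 FPKM in shikonin cells. Casp8 had 18.4 FPKM in shControl and 15.8 FPKM in vehicle cells and Ripk1 13.7 FPKM in shControl and 14.8 FPKM in vehicle cells. The complement genes were at low levels, and the 2 that passed the filter, C1ra and Serping1, were higher by 1.15 and 1.25.

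The libraries outside the comparison gave the same measure in cells that share neither library with it. Of the 387 genes at least 2-fold higher, 358 were higher in shPKM2 than in TEPP-46 cells, where 46.5% of all genes were, and 304 (78.6%) at least 2-fold. Over all genes, 553 (4.97%) were at least 2-fold higher there, the background of the 78.6%. The 304 made up 55.0% of the 553, beside the 3.48% of all genes that were among the 387. Against shikonin, where 50.5% of all genes were higher and 49.3% lower, the counts were 347 and 272 (70.3%, background 7.26%). The 272 were 33.7% of 808 genes, again beside 3.48%. For the 74 lower genes, 34 (45.9%, background 2.08%) were past 2-fold on the lower side in shPKM2 against TEPP-46 cells. They were 14.7% of 231 genes, beside the 0.665% of all genes that were among the 74. Against shikonin 26 (35.1%, background 3.78%) were, 6.18% of 421 genes, again beside 0.665%. Some of the 387 entered through the hairpin libraries, shPKM2 included, so the counts were repeated for the 259 with at least 1 FPKM in vehicle cells, a limit added after the data were seen. Of these, 202 were at least 2-fold higher in shPKM2 than in TEPP-46 cells (3.87% of the 10902 genes were) and 180 in shPKM2 than in shikonin cells (6.38% were). Over the 26 effectors with at least 1 FPKM in vehicle cells, the median was 1.89 in shControl against vehicle, 1.73 in shPKM2 against TEPP-46 and 1.67 in shPKM2 against shikonin. These pairs differ from the comparison in hairpin and compound, and hours and any batch go with the hairpin in them too.

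Most glycolytic genes were higher in shControl cells: of 25 that passed the filter, 22 were higher, 5 at least 2-fold, and 3 lower, with a median of 0.59. The median was 0.79 in shPKM2 against TEPP-46 cells and 0.49 in shPKM2 against shikonin cells. Of all genes, 46.9% were higher. Pkm had 2061 FPKM in shControl cells, against 1321 FPKM in vehicle cells (0.64), and shPKM2 cells, in which it is the target, 1041 FPKM, against 1198 FPKM in TEPP-46 cells and 1501 FPKM in shikonin cells. Aldoa, the aldolase of glycolysis, had 889.8 FPKM in shControl cells, against 432 FPKM in vehicle cells (1.04), and Ldha, which turns pyruvate to lactate, 864 FPKM in shControl and 496 FPKM in vehicle cells (0.80). Slc16a3, the lactate exporter MCT4, had 12.3 FPKM in shControl cells, against 1.37 FPKM in vehicle cells (2.49), and 8.31 FPKM in shPKM2 cells, against 1.14 FPKM in TEPP-46 cells and 1.23 FPKM in shikonin cells. Eno2 had 12.5 FPKM in shControl and 1.82 FPKM in vehicle cells (2.26). Pfkfb3, a regulator of phosphofructokinase, was lower, with 2.42 FPKM in shControl and 3.06 FPKM in vehicle cells (-0.25).

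Targets of the hypoxia factor HIF1 outside glycolysis were mostly higher as well, 22 of 24, with 8 at least 2-fold and a median of 0.69. In shPKM2 cells 15 of 24 were higher than in TEPP-46 cells (median 0.25) and 15 of 24 than in shikonin cells (median 0.31). Bnip3, a mitophagy receptor, had 47.7 FPKM in shControl cells, against 7.22 FPKM in vehicle cells (2.56), and 27.7 FPKM in shPKM2 cells, against 10.5 FPKM in TEPP-46 cells and 11.2 FPKM in shikonin cells. The hairpin libraries did not overlap the others. Ndrg1 had 81.4 FPKM in shControl cells, against 28.03 FPKM in vehicle cells, yet TEPP-46 cells had 162 FPKM, more than either. Pdk1, a kinase of pyruvate dehydrogenase, had 8.22 FPKM in shControl and 2.45 FPKM in vehicle cells (1.42), and Vegfa 81.8 FPKM in shControl and 66.9 FPKM in vehicle cells (0.29). The short core ACGTG was in 18 of 24 promoters of this list (75%) and 15 of 26 of the glycolysis list (57.7%), against 30.2% of the genes in the comparison. Among all genes at least 2-fold higher it was no more frequent, in 72 of 279 (25.8%). The same letters are part of the E-box CACGTG. Oxidative phosphorylation genes of the nucleus were higher in 34 of 36 cases by small amounts, with a median of 0.23 and none at 2-fold, and the TCA cycle genes had a median of 0.16.

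Sterol synthesis genes were higher in nearly every case. Of the 25 genes, 24 were higher and 9 at least 2-fold, with a median of 0.87. Insig1, the sterol-sensing brake of the pathway and itself a target of SREBP2, had 47.9 FPKM in shControl cells, against 11.8 FPKM in vehicle cells (1.94), and 52.5 FPKM in shPKM2 cells, against 8.19 FPKM in TEPP-46 cells and 25.3 FPKM in shikonin cells. Fdps, which makes farnesyl diphosphate, had 184 FPKM in shControl cells, against 65.02 FPKM in vehicle cells (1.49), and 183 FPKM in shPKM2 cells, against 71.7 FPKM in TEPP-46 cells and 53.1 FPKM in shikonin cells. Each hairpin library lay above every 8 h library for both genes. Hmgcs1 had 72.4 FPKM in shControl and 28.3 FPKM in vehicle cells (1.32). Ebp was the 1 lower gene, at -0.16. The list was higher in all 25 genes in shPKM2 against TEPP-46 and in shPKM2 against shikonin, with medians of 1.17 and 1.05. Fatty acid synthesis genes had a median of 0.43, with Fads2 at 48.02 FPKM in shControl cells, against 26.7 FPKM in vehicle cells (0.82) and Acaca at -0.24.

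Lysosomal genes were higher in 31 of 32 cases, 5 at least 2-fold, with a median of 0.58. It was 0.60 in shPKM2 against TEPP-46 cells and 0.14 in shPKM2 against shikonin cells. Gla, the alpha-galactosidase, had 17.4 FPKM in shControl cells, against 5.11 FPKM in vehicle cells (1.59), and Grn, the precursor of granulins, 240.0 FPKM in shControl and 81.7 FPKM in vehicle cells (1.54). Ctsd, the aspartic protease, had 396 FPKM in shControl and 204 FPKM in vehicle cells (0.95), and shikonin cells 631 FPKM, above both hairpin libraries. Tfe3, a transcription factor of the lysosome, was the 1 lower gene, at -0.05. The palindrome TCACGTGA of these promoters was in 6 of 26 (23.1%), against 2.42% of the genes in the comparison, and the E-box CACGTG that it contains in 46.2% of these promoters, against 12.2% of the genes in the comparison. Among all genes at least 2-fold higher neither was more frequent, with the palindrome in 5 of 279 (1.79%) and the E-box in 29 (10.4%). Unfolded protein response genes of the endoplasmic reticulum were higher in 19 of 20 cases, with a median of 0.52, but the median was -0.27 in shPKM2 against shikonin cells. Herpud1 led them, with 70.04 FPKM in shControl cells, against 29.7 FPKM in vehicle cells (1.21), and the chaperone Hspa5 had 552 FPKM in shControl and 360.4 FPKM in vehicle cells (0.61), while TEPP-46 and shikonin cells had 790.4 and 1248 FPKM.

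Ribosome biogenesis genes were lower by small amounts. All 38 genes of the list were lower in shControl cells and none reached 2-fold, with a median of -0.41. Nop16 had 39.6 FPKM in shControl cells, against 66.4 FPKM in vehicle cells (-0.73), Rrp1b 9.91 FPKM in shControl and 16.9 FPKM in vehicle cells (-0.71), and Polr1b, a subunit of RNA polymerase I, 12.7 FPKM in shControl and 19.5 FPKM in vehicle cells (-0.58). The medians were -0.38 in shPKM2 against TEPP-46 cells and -0.17 in shPKM2 against shikonin cells. Of all genes, 52.9% were lower in shControl than in vehicle cells. Myc, which drives this program, had 34.05 FPKM in shControl cells, against 49.1 FPKM in vehicle cells (-0.51), and the cytosolic ribosomal proteins had a median of 0.02, which was -0.05 after rescaling to TPM.

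**Figure D3:**
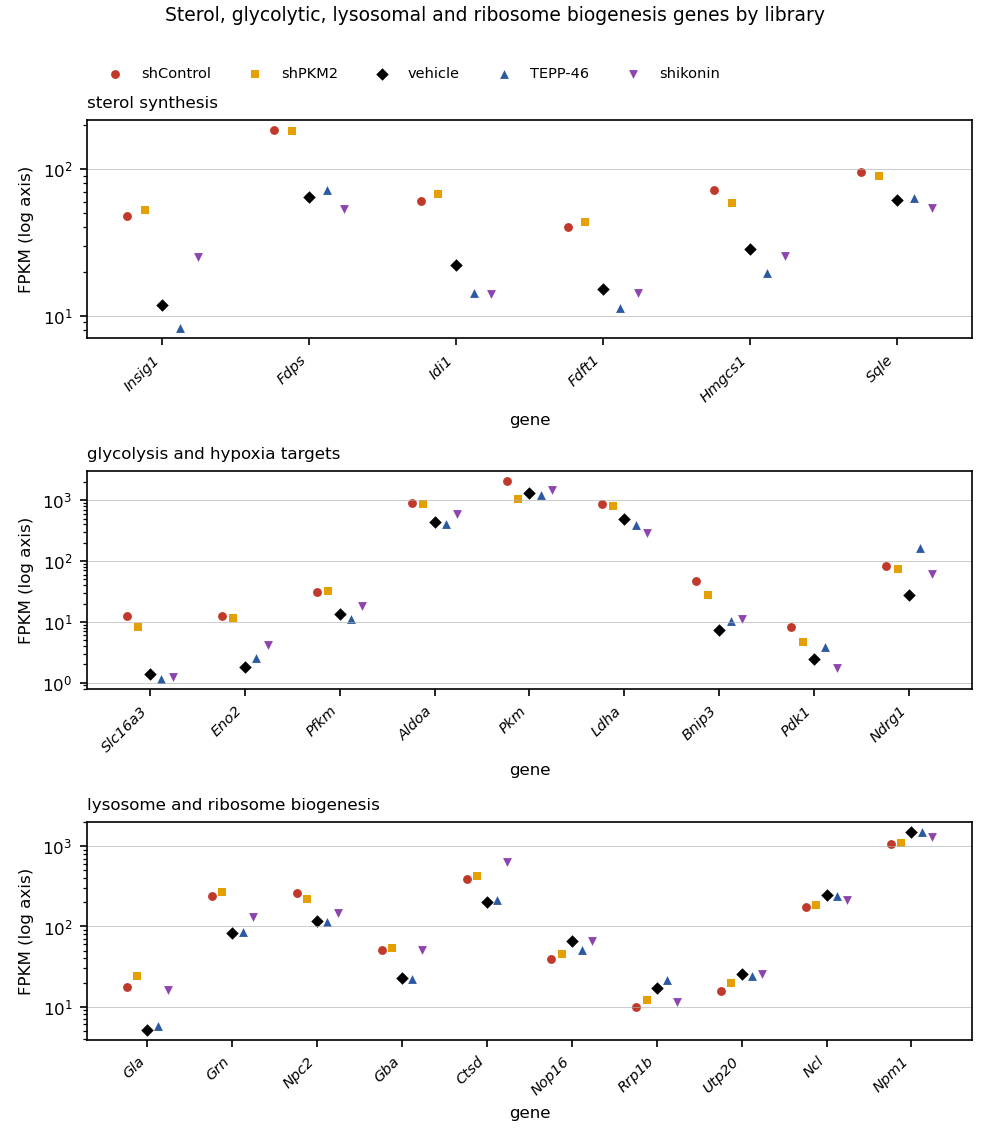
FPKM, on log axes, of sterol synthesis genes (top), glycolytic and hypoxia genes (middle) and lysosomal and ribosome biogenesis genes (bottom) in the 5 libraries, 1 symbol per library. For Insig1, Fdps, Slc16a3 and Bnip3 the red and orange hairpin symbols lie above the others, whereas for Nop16 and Npm1 the shControl symbol lies below that of vehicle.

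The genes lower in shControl cells were led by contractile genes typical of smooth muscle, which are targets of serum response factor (SRF) and its actin-sensing cofactors. Tagln, or transgelin, an actin crosslinker (chr9:45929619-45936058, minus strand), had 4.99 FPKM in shControl cells, against 121 FPKM in vehicle cells, a difference of -4.35. Its level was 3.29 FPKM in shPKM2 cells, against 101 FPKM in TEPP-46 cells and 84.4 FPKM in shikonin cells. The hairpin libraries were both under 5 FPKM and the others above 80 FPKM. Acta2, smooth muscle alpha actin (chr19:34241090-34255590, minus strand), had 58.6 FPKM in shControl cells, against 366 FPKM in vehicle cells (-2.62), and 53.9 FPKM in shPKM2 cells, against 319.6 FPKM in TEPP-46 cells and 219.9 FPKM in shikonin cells. Actg2, smooth muscle gamma actin, had 5.20 FPKM in shControl and 44.97 FPKM in vehicle cells (-2.89), and Myl9, a regulatory light chain, 10.1 FPKM in shControl and 53.9 FPKM in vehicle cells (-2.31). Fhl1, a LIM protein of muscle, had 48.2 FPKM in shControl cells, against 102 FPKM in vehicle cells (-1.07), but shikonin cells had 33.1 FPKM, close to the 32.2 FPKM of shPKM2 cells. The general actin genes and SRF cofactors differed less: Flna was at -0.81, Actn1 at -0.72, and the cofactors Mkl1 and Mkl2 at -0.12 and -0.01. Of 27 genes of the list in the comparison, 24 were lower, 5 at least 2-fold, and 3 higher, with a median of -0.29. The list as a whole had a median of -0.35 in shPKM2 against TEPP-46 cells but 0.071 in shPKM2 against shikonin cells, where 16 of 27 genes were higher. Smooth muscle actins are close copies of the skeletal and cytoplasmic ones, so reads may have been divided among them.

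Targets of YAP and TEAD, the factors that respond to cell density, tension and the Hippo kinases, were lower in 13 of 17 cases, 6 at least 2-fold, with a median of -0.57. Their median was -0.45 in shPKM2 against TEPP-46 cells and -0.02 in shPKM2 against shikonin cells, where 8 of 17 were higher. Ctgf, a matricellular growth factor, had 25.2 FPKM in shControl cells, against 118 FPKM in vehicle cells (-2.17), and 11.1 FPKM in shPKM2 cells, against 45.3 FPKM in TEPP-46 cells and 13.6 FPKM in shikonin cells. The libraries overlapped, since shikonin cells were lower than shControl cells. Cyr61, its relative, had 139.9 FPKM in shControl cells, against 368 FPKM in vehicle cells (-1.39), and 106 FPKM in shPKM2 cells, against 261 FPKM in TEPP-46 cells and 289.9 FPKM in shikonin cells, without overlap. Amotl2 had 26.97 FPKM in shControl and 63.7 FPKM in vehicle cells (-1.21), Ajuba 18.8 FPKM in shControl and 41.97 FPKM in vehicle cells (-1.12) and Ankrd1 379.7 FPKM in shControl and 640.5 FPKM in vehicle cells (-0.75). The factors themselves were slightly higher, Yap1 at 0.15 and Wwtr1 (TAZ) at 0.41. Vgll2, a muscle cofactor of TEAD, ran opposite to its relative Vgll3. Vgll2 had 25.4 FPKM in shControl cells, against 4.79 FPKM in vehicle cells (2.19), and Vgll3 5.95 FPKM in shControl and 15.8 FPKM in vehicle cells (-1.28).

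Promoter windows of lower genes are shown for the elements of these factors, again from RefSeq on GRCm38.p6. Capitals mark a CArG box, the SRF element, in Myl9 and Fhl1, and the TEAD site GGAATG, on either strand, in the others. They lie at chr2:156775273-156775342 (Myl9, plus strand), chrX:56779551-56779620 (Fhl1, plus strand), chr3:145650051-145650120 (Cyr61, minus strand), chr19:36119930-36119999 (Ankrd1, minus strand), chr9:102717707-102717776 (Amotl2, plus strand) and chr14:54577788-54577857 (Ajuba, minus strand).
Myl9: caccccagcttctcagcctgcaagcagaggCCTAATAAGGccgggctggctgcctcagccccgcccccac
Fhl1: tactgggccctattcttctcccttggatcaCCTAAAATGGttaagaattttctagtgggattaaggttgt
Cyr61: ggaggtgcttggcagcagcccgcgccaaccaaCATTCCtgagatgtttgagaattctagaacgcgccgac
Ankrd1: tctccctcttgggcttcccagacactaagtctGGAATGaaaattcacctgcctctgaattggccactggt
Amotl2: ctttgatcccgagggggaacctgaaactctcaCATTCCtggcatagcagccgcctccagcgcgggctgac
Ajuba: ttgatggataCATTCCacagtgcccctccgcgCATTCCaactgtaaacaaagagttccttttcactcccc
A CArG box was in 8 of 25 promoters of the SRF list (32.0%), against 1.60% of the genes in the comparison. Among the genes at least 2-fold lower it was in 2 of 39 (5.13%), and Acta2 had none in the window. The TEAD site was in 10 of 14 promoters of the YAP list (71.4%) and in 14 of 39 promoters of the genes at least 2-fold lower (35.9%), against 13.9% of the genes in the comparison. Its 6 letters occur often, and no factor was measured.

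Matrix genes were split. Thbs1, an adhesive glycoprotein that activates TGF-beta, had 49.8 FPKM in shControl cells, against 186 FPKM in vehicle cells (-1.88), and 56.9 FPKM in shPKM2 cells, against 73.5 FPKM in TEPP-46 cells and 64.3 FPKM in shikonin cells. Vehicle alone was high for this gene, and the hairpin libraries lay just below TEPP-46 and shikonin. Fn1, fibronectin, had 175 FPKM in shControl cells, against 439 FPKM in vehicle cells (-1.32), and 112 FPKM in shPKM2 cells, against 472 FPKM in TEPP-46 cells and 344 FPKM in shikonin cells, so both hairpin libraries lay below the others. The basement membrane collagens Col4a1 and Col4a2 were lower by differences of -1.23 and -1.16, and Col5a2 of -1.17. Col3a1, a fibrillar collagen of loose tissue, was higher, with 206 FPKM in shControl cells, against 81.5 FPKM in vehicle cells (1.32), and 177 FPKM in shPKM2 cells, against 71.5 FPKM in TEPP-46 cells and 22.4 FPKM in shikonin cells. Dcn, a proteoglycan that binds collagen, had 6.52 FPKM in shControl and 1.36 FPKM in vehicle cells (1.67). In all, 11 of 15 collagens were lower and 4 higher. Among TGF-beta family and SMAD targets the median was 0.15, with Id1 at 0.75 and Smad7 at -0.27.

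**Figure D4:**
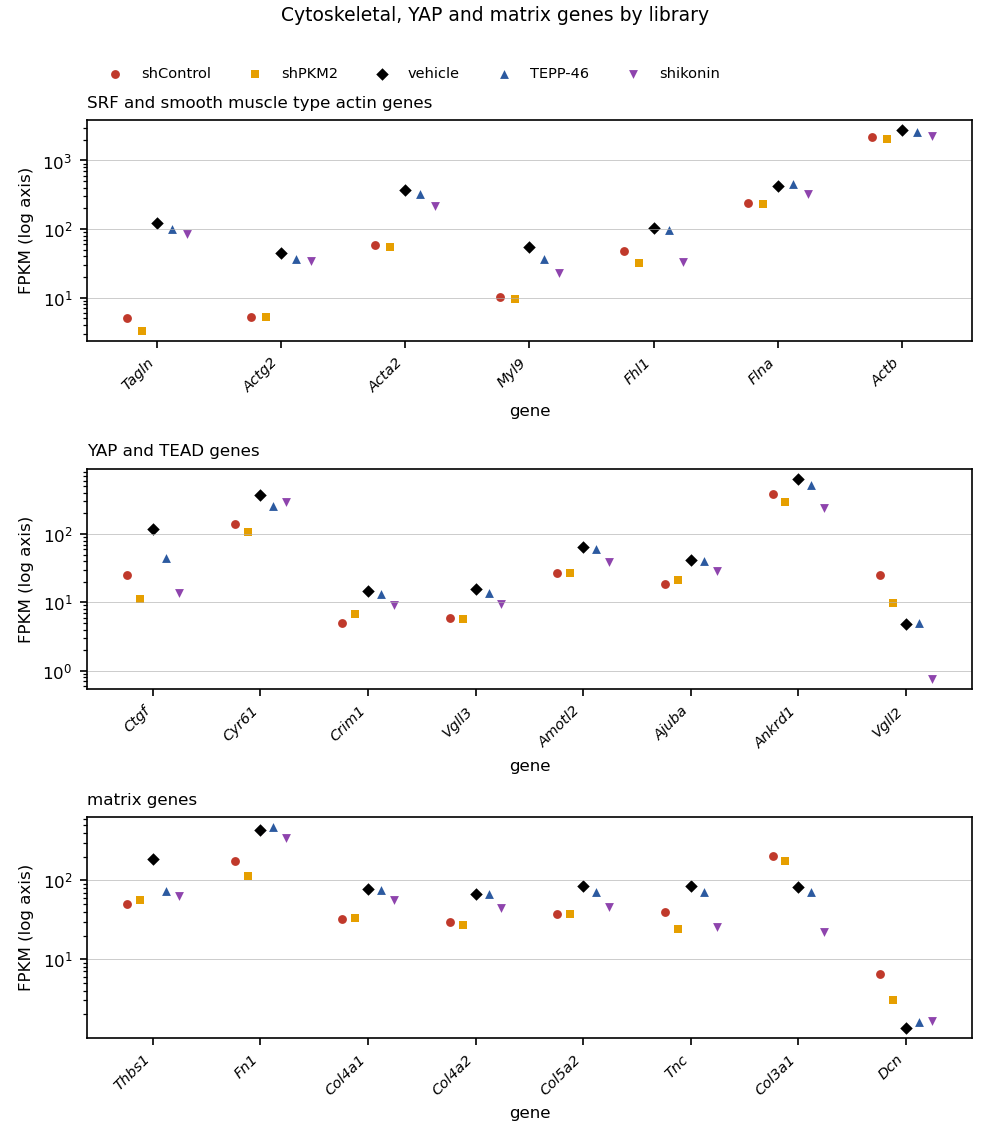
FPKM, on log axes, of SRF and smooth muscle type genes (top), YAP and TEAD genes (middle) and matrix genes (bottom) in the 5 libraries, 1 symbol per library. Tagln, Actg2, Acta2 and Cyr61 separate the red and orange hairpin symbols from the others, Ctgf does not, and Vgll2, Col3a1 and Dcn are higher in the shControl library than in the vehicle library.

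Most myogenic genes differed little. Of 25 myogenic genes, 11 were higher and 14 lower, with a median of -0.05 and 1 past 2-fold. That gene was Myf5, an early myogenic factor, with 32.1 FPKM in shControl cells, against 10.7 FPKM in vehicle cells. Its level was 23.1 FPKM in shPKM2 cells, against 23.7 FPKM in TEPP-46 cells and 3.69 FPKM in shikonin cells, so TEPP-46 cells lay level with shPKM2 cells. Pax7, the satellite cell factor, had 2.998 FPKM in shControl and 2.10 FPKM in vehicle cells, and Myog, the factor of differentiation, 6.91 FPKM in shControl and 5.30 FPKM in vehicle cells. The adhesion molecules Cdh15 and Ncam1 were lower, at 55.04 FPKM in shControl and 78.7 FPKM in vehicle cells and 17.4 FPKM in shControl and 28.1 FPKM in vehicle cells. Of the 22 sarcomere genes that passed the filter, 16 were lower, with a median of -0.25 and none at 2-fold. Acta1, skeletal actin, had 13.8 FPKM in shControl cells, against 25.7 FPKM in vehicle cells (-0.85). With shPKM2 in place of shControl the median of the sarcomere genes had the other sign, 0.058. Among acetylcholine receptor genes, Chrnd was higher by 0.99 and Dok7 lower, at 1.17 FPKM in shControl and 3.68 FPKM in vehicle cells (-1.11).

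Growth factor genes included 1 of the largest differences outside immunity. Igfbp5, an IGF-binding protein, had 531 FPKM in shControl cells, against 28.2 FPKM in vehicle cells (4.19), and 382 FPKM in shPKM2 cells, against 38.4 FPKM in TEPP-46 cells and 9.43 FPKM in shikonin cells. The hairpin libraries did not overlap the others. The rest of the IGF list lay between -0.40 (Irs2) and 0.92 (Igfbp3). Cell cycle genes had medians near 0: the 32 genes of G1/S and DNA replication had a median of 0.14 and the 32 of G2/M and mitosis -0.06. Ccnd1, cyclin D1, had 219.6 FPKM in shControl cells, against 134 FPKM in vehicle cells (0.70).

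Stress programs differed in part. In the integrated stress response, Ddit3 (CHOP) had 94.3 FPKM in shControl cells, against 28.02 FPKM in vehicle cells (1.72) and Atf3 18.6 FPKM in shControl and 6.39 FPKM in vehicle cells (1.41), whereas Asns, asparagine synthetase, was lower, with 85.6 FPKM in shControl and 151 FPKM in vehicle cells (-0.81). TEPP-46 and shikonin cells had 243 and 195 FPKM of Ddit3, above both hairpin libraries. Of the 26 genes of the list, 16 were higher in shControl cells and 10 lower, with a median of 0.14. In shPKM2 cells 0 of 26 were higher than in TEPP-46 cells (median -1.17) and 5 of 26 than in shikonin cells (median -0.63). Of NRF2 targets, 21 of 33 were lower, with a median of -0.15, and 1 gene was past 2-fold on either side, where 52.9% of all genes were lower. Txnrd1, thioredoxin reductase, had 122 FPKM in shControl cells, against 246 FPKM in vehicle cells (-1.01), and Mgst1 4.53 FPKM in shControl and 1.20 FPKM in vehicle cells (1.33). Genes of serine synthesis and one-carbon metabolism had a median of -0.30, with 11 of 14 lower. The RNA interference machinery, which processes hairpins, had a median of -0.31, with 11 of 12 genes lower. Dicer1 had 8.30 FPKM in shControl cells, against 12.85 FPKM in vehicle cells (-0.57), the exporter Xpo5 31.6 FPKM in shControl and 44.9 FPKM in vehicle cells (-0.49), and Eif2c2 (Argonaute 2) 14.1 FPKM in shControl and 19.1 FPKM in vehicle cells (-0.41). Of heat shock genes, 16 of 24 were lower, with a median of -0.10, and p53 targets had a median of 0.19.

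Markers that belong to other cells were examined beside these groups. The fibroblast and mesenchymal markers summed to 695 FPKM in shControl cells and 148 FPKM in vehicle cells, of which Ly6a accounted for 562 FPKM in shControl and 80.7 FPKM in vehicle cells. Ly6a encodes Sca-1, a surface protein of mesenchymal and stem cells that interferon is known to induce in mouse. All 5 of these markers that passed the filter were higher, 3 at least 2-fold, with a median of 1.04. Besides Ly6a, Twist2 had 58.9 FPKM in shControl and 28.2 FPKM in vehicle cells, Cd34 had 59.5 FPKM in shControl and 28.3 FPKM in vehicle cells, Pdgfrb 12.76 FPKM in shControl and 9.27 FPKM in vehicle cells, Pdgfra 1.72 FPKM in shControl and 1.24 FPKM in vehicle cells, and Dpt, Tcf21 and Thy1 were under 0.05 FPKM in both. Their part in the results was not tested. Cd14, which macrophages and some stromal cells express, had 26.7 FPKM in shControl and 9.09 FPKM in vehicle cells. The adipocyte markers summed to 15.95 FPKM in shControl and 12.3 FPKM in vehicle cells, mostly Pparg, and those of bone and cartilage to 34.3 FPKM in shControl and 31.2 FPKM in vehicle cells.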

How the data were processed

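The authors deposited 1 table of FPKM values with 1 column per library, each matched to its condition by name. The submitters' processing notes name GRCm38 as the build and list DESeq2 1.26.0, FastQC, cutadapt and Trim Galore 0.6.0. Which program aligned and counted the reads, with which annotation and strand setting, is not given in the sources used here. FPKM values are not counts, so no count model was used. Values were transformed as log2(FPKM + 1) in Python 3.11.15 with pandas 2.3.3 and numpy 2.4.6, and a gene was kept where its mean over the 5 libraries reached 1 FPKM. Conditions had 1 library each, so differences were ranked and counted by size without a test. The counting was checked on simulated data. Depth was read from 224 genes with low values and a single transcript, in GENCODE M21 lengths (for vehicle, quartiles of 25.3 and 32.3 in units of 1000000 reads), and covers counting error only. Whole multiples of 1 step were found in 901 of 3611 low genes (tolerance 0.02), too few to recover reads.

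The members and the 56 gene lists were chosen with earlier results of these data known, and 40 list entries were matched through older symbols. Named by rule were the 20 highest and 20 lowest genes that averaged 5 FPKM or more in the 2 libraries, without short RNA genes and gene models lacking a regular symbol, for every list as many as 5 members on either side, all interferon ligands, receptors, factors and sensors, the markers, and Pkm. A few genes under this rule are not reported here. Other genes were chosen after their values were seen. The list of transcripts of the mitochondrial genome was not analysed here. Promoters came from RefSeq on GRCm38.p6, and both strands were searched. Alternatives were other pseudocounts, filters and scalings, and other libraries in place of the 2 compared.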

Additional observations from a re-analysis of the deposited data

How the results depend on the processing

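The counts of 387 higher and 74 lower genes depended on the processing mostly on the lower side. The lower count was 129 with a pseudocount of 0.1, 38 with a pseudocount of 5, 124 after rescaling to TPM, which put the median of all genes at -0.08 and raised the genes that passed the filter to 11724, and 224 with TEPP-46 in place of vehicle. The higher count was 214 with a pseudocount of 5 and stayed within 1.5 times of 387 under the other alternatives. Of the calls, 83.9% were higher in the main setting and 68.5% with TEPP-46 in place of vehicle. With shPKM2 in place of shControl, the median of the sarcomere list was 0.058 in place of -0.25 and the difference of Pkm, the target of that hairpin, -0.34 in place of 0.64. The cause of the other shifts was not tested. Rescaling to TPM also took the medians of the ribosomal proteins, constitutive proteasome, immediate early genes and MAP kinase feedback from just above 0 to just below it, at -0.05, -0.04, -0.06 and -0.06. The filter on vehicle of at least 1 FPKM was added after the data were seen and gave 259 higher genes.

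No paired analysis was possible because each condition had 1 library, and for the same reason no replicate was left out. Depth limits genes near 1 FPKM, and the differences carry no error from cultures or library preparation.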

Other observations

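Several secreted factors and surface proteins that are in none of the gene lists were higher in shControl cells, chosen here after their values were seen. Cck, the gut and brain peptide cholecystokinin, had 443 FPKM in shControl cells, against 12.4 FPKM in vehicle cells (5.05), and 245 FPKM in shPKM2 cells, against 11.3 FPKM in TEPP-46 cells and 19.3 FPKM in shikonin cells. Both hairpin libraries lay above every 8 h library. Il33, an alarmin cytokine, had 56.9 FPKM in shControl cells, against 2.90 FPKM in vehicle cells (3.89), and 79.3 FPKM in shPKM2 cells, against 2.65 FPKM in TEPP-46 cells and 1.49 FPKM in shikonin cells. Ptn, the growth factor pleiotrophin, had 34.9 FPKM in shControl and 2.14 FPKM in vehicle cells (3.52), the thymic stromal lymphopoietin gene Tslp 20.1 FPKM in shControl and 2.48 FPKM in vehicle cells (2.60), Hgf, the ligand of the Met receptor, 27.7 FPKM in shControl and 7.17 FPKM in vehicle cells (1.82), and Fgf7 20.1 FPKM in shControl and 3.01 FPKM in vehicle cells (2.40). Grem1, a secreted BMP antagonist, had 318 FPKM in shControl cells, against 102 FPKM in vehicle cells (1.63), and the water channel Aqp5 427 FPKM in shControl and 138 FPKM in vehicle cells (1.63). Ly6 proteins on the surface were higher too, Ly6e at 558 FPKM in shControl and 102 FPKM in vehicle cells (2.44) and Ly6c1 at 83.2 FPKM in shControl and 15.7 FPKM in vehicle cells (2.33). Prl2c2 had 241 FPKM in shControl cells, against 61.6 FPKM in vehicle cells, and Prl2c3 351 FPKM in shControl and 153 FPKM in vehicle cells, 2 close copies of the proliferin family whose reads may be divided between them.

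On the lower side, genes outside the lists included Tubb3, a beta tubulin of neurons, with 71.4 FPKM in shControl cells, against 227 FPKM in vehicle cells (-1.65), and 57.4 FPKM in shPKM2 cells, against 261 FPKM in TEPP-46 cells and 189 FPKM in shikonin cells. Cyp1b1, a target of the aryl hydrocarbon receptor, had 9.80 FPKM in shControl cells, against 37.7 FPKM in vehicle cells (-1.84), but shikonin cells had 9.95 FPKM, level with shControl cells. The endothelin gene Edn1 had 0.432 FPKM in shControl and 3.23 FPKM in vehicle cells (-1.56), and Pmepa1, an inhibitor of SMAD signalling, 26.99 FPKM in shControl and 76.9 FPKM in vehicle cells (-1.48). Rmrp, a nuclear RNA without a poly(A) tail, had 3.45 FPKM in shControl and 11.3 FPKM in vehicle cells (-1.47).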
